A study of Mus musculus with 24 samples.

Results

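The libraries compared here were 3 from mouse cortical neural progenitor cells held for 24 h, and 3 from such cells held for 12 h, with (+)-JQ1 at 0.5 µM in differentiation medium. They were chosen by their titles and are 6 of the 24 libraries of the series. The cells came from the cortex of C57BL/6 embryos at E12 and were used at passage 3. The 3 libraries of a group came from 3 independent preparations. The other groups, again of 3 libraries each, were (+)-JQ1 at 0.2 µM and the inactive enantiomer (−)-JQ1 at 0.5 and 0.2 µM, each at 24 and 12 h. All 8 groups were in differentiation medium with 1 of the 2 enantiomers, so cells without compound, or from before its addition, were not used here. The question was which genes still changed between 12 and 24 h of differentiation while BET bromodomains were occupied at the higher dose.

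BET proteins bind acetylated lysines of histones through their bromodomains and bring the elongation kinase P-TEFb to promoters and enhancers. (+)-JQ1 fills the acetyl-lysine pocket and displaces these proteins from chromatin, whereas its mirror image (−)-JQ1 hardly binds it. Cortical progenitors placed in differentiation medium leave the cell cycle and give rise to neurons, astrocytes and cells of the oligodendrocyte lineage over the following days.

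The values are the FPKM deposited by the authors, that is, fragments per kilobase of transcript scaled to the number of reads of the library. Differences are of log2(FPKM + 1), 24 h minus 12 h, with the standard error of the fit. A gene was called at a limma adjusted p under 0.05 over all 13801 genes tested. Judged from the steps between low FPKM values, the depths of the 24 libraries lay within a ratio of 1.12. The 6 libraries had 16953 to 17161 genes above 0 at 24 h and 17321 to 17505 at 12 h. All 8 neural progenitor markers were above 1 FPKM. The cortex markers Emx2 and Lhx2 were present, at 12.8 to 14.8 and 31.3 to 46.9 FPKM. Another, Emx1, was at no more than 0.0829 FPKM in any of the 6 libraries. None of the 10 microglial markers exceeded 0.564 FPKM and none of the erythroid ones 0.139 FPKM. Kdr, at up to 2.08 FPKM, was the one endothelial marker above 1 FPKM. The third 12 h library of each of the 4 treatments held 14.4 to 17.5% of its FPKM in genes of short RNAs, against 10.1 to 12.5% in the other 8 libraries at 12 h.

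Between 12 and 24 h under 0.5 µM (+)-JQ1 581 genes were called, which is 4.21% of those tested. At 24 h 382 were higher (2.77%) and 199 lower (1.44%). The difference was 2-fold or more on the log2(FPKM + 1) scale for 43 of the higher and 39 of the lower genes, and the median over all genes tested was 0.03. The split depended on the scaling between libraries. With median-of-ratios scaling 336 genes were higher and 321 lower, and with short RNA genes left out and libraries scaled to one sum 210 were higher and 304 lower. Without 1 library, between 110 and 638 genes were called higher and between 60 and 261 lower. The counts were 115 higher and 60 lower without the first 24 h library, 137 and 82 without the second and 638 and 261 without the third. They were 189 and 115 without the first 12 h library, 275 and 141 without the second and 110 and 67 without the third. Of 112 called genes named in the text, 33 kept the call in each of these 6 fits, and for the others the library that ended the call is named with the adjusted p without it.

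Genes were named first by size, among those called at a mean of at least 5 FPKM, with no overlap between the times and without short RNA genes. The largest increase was that of Pcp4, which encodes a small calmodulin-binding peptide of neurons. Pcp4 was at 42.1, 39.0 and 43.3 FPKM at 24 h, against 5.01, 5.19 and 2.77 at 12 h. The lowest 24 h library was thus far above the highest 12 h library, and the difference was 3.03 ± 0.22, adjusted p = 1.29e-07. Vtn, the adhesion glycoprotein vitronectin, was at 32.5, 27.4 and 28.9 FPKM at 24 h, against 6.62, 9.07 and 6.83 at 12 h (1.86 ± 0.21, adjusted p = 4.51e-05). Nr1d2, a repressor of the circadian clock, was at 14.5, 14.8 and 9.96 FPKM at 24 h, against 4.78, 4.87 and 4.88 at 12 h (1.25 ± 0.14, adjusted p = 4.10e-05). Mt3, a zinc-binding metallothionein of the brain, averaged 1719.5 ± 83.8 FPKM at 24 h and 729 ± 191 FPKM at 12 h (SD, n = 3 each) and differed by 1.27 ± 0.21, adjusted p = 0.00134. Tceal3 differed by 1.47 ± 0.23, adjusted p = 0.00101. No overlap between the times was required of the genes named by size, so it adds nothing to their calls. It held for 26.8% of all genes tested, a share that belongs beside each lack of overlap given below.

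Others among the largest increases are known from neurons or their precursors. Dcx, the microtubule-binding doublecortin of migrating young neurons, was at 22.9, 19.3 and 30.3 FPKM at 24 h, against 9.19, 8.24 and 9.75 at 12 h (1.30 ± 0.18, adjusted p = 0.000269). Stmn4, a stathmin that destabilises microtubules, averaged 9.35 ± 2.46 FPKM at 24 h and 3.25 ± 0.652 FPKM at 12 h (1.27 ± 0.26, adjusted p = 0.00867). Dlx6as1, a transcript antisense to Dlx6 of ganglionic eminence cells, averaged 11.2 ± 2.22 FPKM at 24 h and 3.22 ± 1.77 FPKM at 12 h (1.59 ± 0.29, adjusted p = 0.00364). Whether the counting used strand is not given in the sources used here, so its reads cannot be told apart from those of its antisense partner. Nog, a secreted antagonist of BMPs, averaged 7.92 ± 2.00 FPKM at 24 h and 2.16 ± 0.932 FPKM at 12 h (1.51 ± 0.31, adjusted p = 0.00863). Wwc1, which encodes the scaffold protein KIBRA, differed by 1.26 ± 0.27, adjusted p = 0.0102. The symbol LOC100861693, for which the files give no name, differed by 1.89 ± 0.34, adjusted p = 0.00356. Nog lost its call without the first 24 h library or the third 12 h library (adjusted p = 0.0596 to 0.0616). Stmn4 did so without the first or the second 24 h library (0.0532 to 0.0587). Wwc1 lost it without the first 24 h library or the first or the third 12 h library (0.0524 to 0.071).

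By the same rule the largest decrease was that of Rn7sk, the 7SK RNA, which holds P-TEFb inactive together with Hexim proteins. Rn7sk was at 35.1, 46.3 and 145 FPKM at 24 h, against 574, 276 and 937 at 12 h (−3.07 ± 0.79, adjusted p = 0.037). The times did not overlap, as the rule required, but the spread within each was wide. This RNA carries no poly(A) tail, although the libraries were made from poly(A) RNA. It was also lower at 24 h under (−)-JQ1 (−3.96, adjusted p = 0.00636). Hexim1, whose protein binds 7SK, averaged 64.5 ± 3.35 FPKM at 24 h and 69.0 ± 3.34 FPKM at 12 h (−0.09 ± 0.09, adjusted p = 0.58). Rn7sk lost its call without the first or the second 24 h library or the first or the third 12 h library (adjusted p = 0.0992 to 0.176).

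Among the other genes at a mean of at least 5 FPKM the largest falls were of Etv5, Cdkn1c and Tm7sf2. Etv5, an ETS factor whose transcription follows FGF signalling, was at 5.44, 5.10 and 4.49 FPKM at 24 h, against 23.5, 12.3 and 29.5 at 12 h (−1.84 ± 0.35, adjusted p = 0.00606). Cdkn1c, the CDK inhibitor p57, was at 8.69, 11.2 and 11.9 FPKM at 24 h, against 48.4, 37.4 and 22.7 at 12 h (−1.63 ± 0.25, adjusted p = 0.000836). In both genes all 3 libraries at 24 h lay below all 3 at 12 h, as the rule required, with a wide spread at 12 h. Tm7sf2, a sterol reductase, averaged 3.59 ± 0.536 FPKM at 24 h and 12.5 ± 0.800 FPKM at 12 h (−1.56 ± 0.25, adjusted p = 0.00134). Lgals1, the lectin galectin-1, averaged 5.55 ± 0.261 FPKM at 24 h and 15.6 ± 4.17 FPKM at 12 h (−1.31 ± 0.18, adjusted p = 0.000322). Cdkn1a, the CDK inhibitor p21, was at 6.24, 10.1 and 8.31 FPKM at 24 h, against 20.2, 15.9 and 43.8 at 12 h (−1.48 ± 0.35, adjusted p = 0.0216). The third 12 h library was the highest of the 6 for Cdkn1a. Slc25a18, a glutamate carrier of mitochondria, averaged 3.07 ± 0.519 FPKM at 24 h and 11.9 ± 5.87 FPKM at 12 h (−1.55 ± 0.34, adjusted p = 0.0145). The long noncoding RNA Miat averaged 13.8 ± 4.67 FPKM at 24 h and 42.6 ± 16.2 FPKM at 12 h (−1.54 ± 0.43, adjusted p = 0.0497). The unnamed transcripts LOC100862241 (−1.44 ± 0.33, adjusted p = 0.0171) and 6530418L21Rik (−1.34 ± 0.36, adjusted p = 0.0432) fell too. Cdkn1a lost its call without the first 24 h library or the third 12 h library (adjusted p = 0.119 to 0.13). Slc25a18 did so without the first 24 h library or the first or the third 12 h library (0.0606 to 0.0998). Miat lost it without any 1 library (0.0617 to 0.164). LOC100862241 did so without the first 24 h library or the first or the third 12 h library (0.0753 to 0.103). 6530418L21Rik lost it without any library but the second 12 h one (0.0732 to 0.204).

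**Figure D1:**
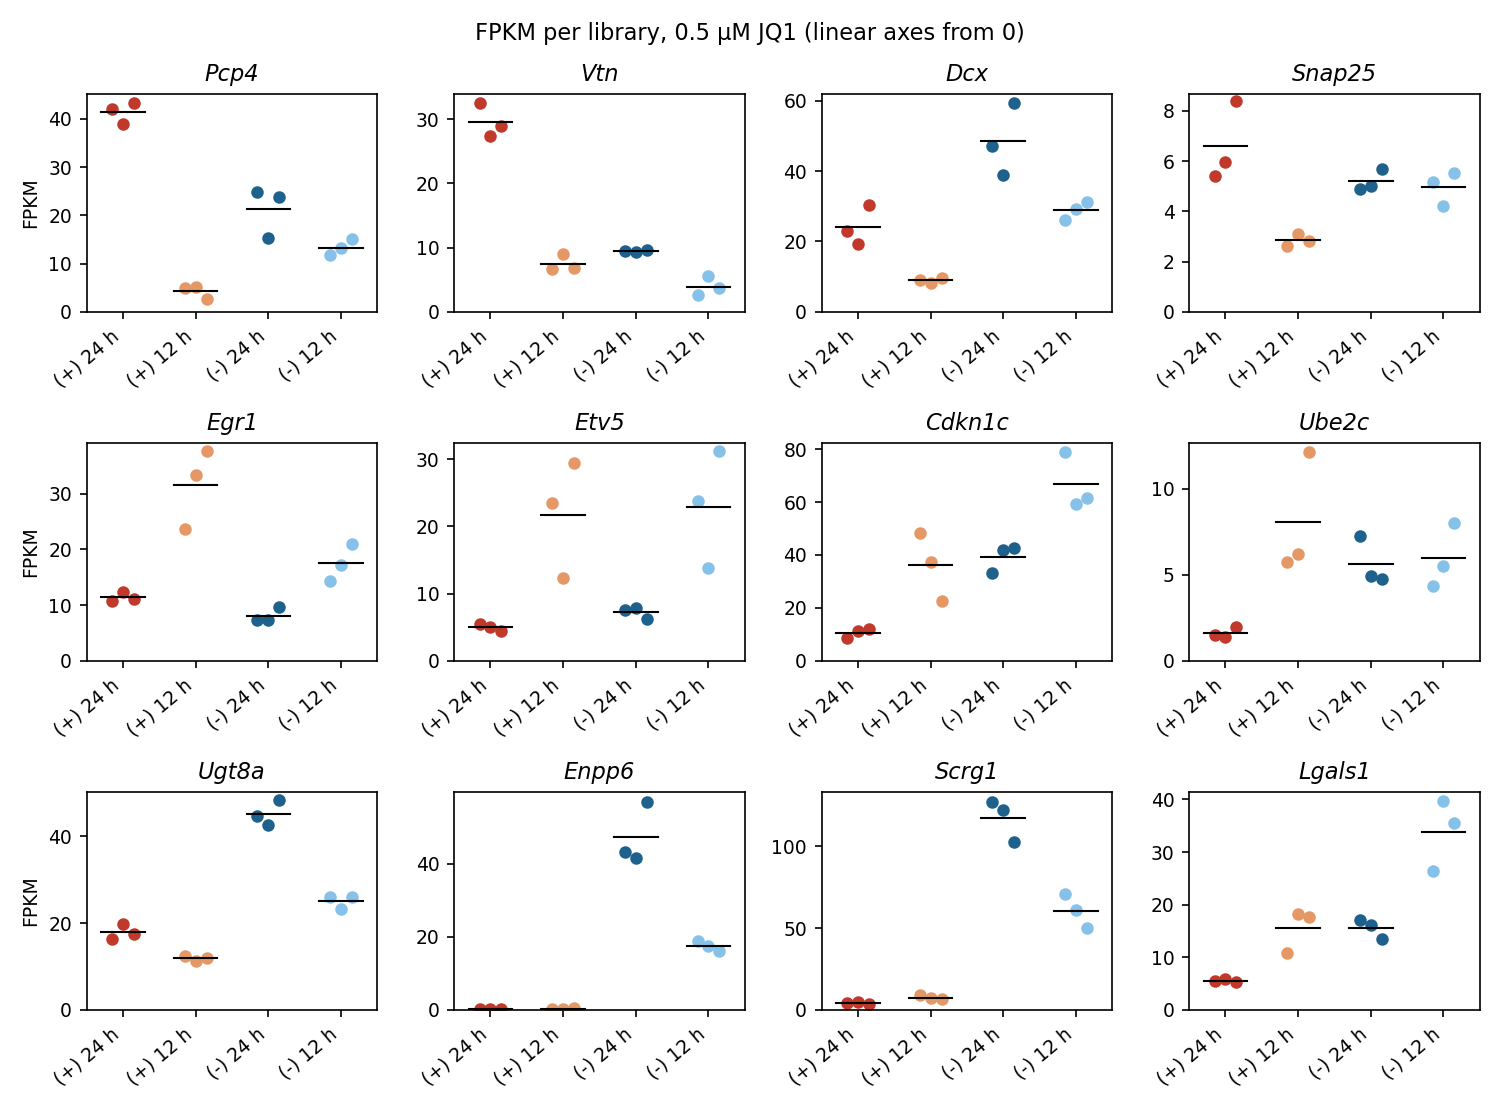
FPKM of 12 genes (1 panel each, linear axis from 0) in every library of 4 groups, from left to right (+)-JQ1 0.5 µM at 24 h and 12 h and (−)-JQ1 0.5 µM at 24 h and 12 h. Points are libraries and black lines are group means. Pcp4 separates 39.0 to 43.3 FPKM at 24 h from 2.77 to 5.19 FPKM at 12 h under (+)-JQ1, whereas Enpp6 and Scrg1 stand far higher under (−)-JQ1.

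Genes of G2 and mitosis were lower at 24 h. Of 33 listed genes 13 fell and 0 rose, against 1.44% and 2.77% of all genes tested. The log2 difference was negative for all 33, with a median of −0.84 beside 0.03 over all genes. Summed over the 33 genes, the level was 30.7, 32.2 and 22.7 FPKM at 24 h, against 64.3, 63.3 and 163 FPKM at 12 h. Every 24 h sum was thus below every 12 h sum, and the third 12 h library stood far above the other two. In bulk RNA, fewer cells of a type and less RNA per cell cannot be told apart.

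Ube2c, the ubiquitin-conjugating enzyme that works with the anaphase-promoting complex, was at 1.5, 1.37 and 1.96 FPKM at 24 h, against 5.75, 6.24 and 12.1 at 12 h (−1.73 ± 0.33, adjusted p = 0.00606). Mki67, whose protein Ki-67 coats mitotic chromosomes, was at 0.444, 0.406 and 0.0958 FPKM at 24 h, against 2.06, 1.71 and 6.2 at 12 h (−1.58 ± 0.30, adjusted p = 0.00527). Both calls held without any 1 library. The mitotic cyclin Ccnb1 was at 0.773, 0.412 and 0.244 FPKM at 24 h, against 2.83, 2.30 and 8.28 at 12 h (−1.75 ± 0.42, adjusted p = 0.0233). Its partner kinase Cdk1 was at 0.518, 0.295 and 0.453 FPKM at 24 h, against 1.36, 1.33 and 3.06 at 12 h (−0.99 ± 0.24, adjusted p = 0.0209). Cyclin and kinase together drive entry into mitosis. Tpx2, a spindle assembly factor, was at 0.957, 1.52 and 0.703 FPKM at 24 h, against 4.83, 3.05 and 11.3 at 12 h (−1.70 ± 0.42, adjusted p = 0.0263). Top2a, the topoisomerase that untangles sister chromatids, was at 1.85, 1.81 and 0.532 FPKM at 24 h, against 3.59, 3.70 and 11.5 at 12 h (−1.48 ± 0.40, adjusted p = 0.0417). In each of these 6 genes the third 12 h library was the highest, yet the other two 12 h libraries also exceeded all 3 libraries at 24 h.

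The remaining members that fell were Nusap1 (−1.25), Cenpa (−1.20), Cdc25c (−1.05), Plk1 (−0.90), Cenpe (−0.84), Foxm1 (−0.77) and Bub1 (−0.73). They act in the spindle, at the kinetochore or in the control of entry into mitosis. These 7 genes, Top2a and Cdk1 were named after their values were seen. How many of the 33 genes passed the threshold depended on single libraries. Of them 2 were called without the first 24 h library, 3 without the second, 6 without the third, 2 without the third 12 h library and 4 without the third 12 h library of all 4 treatments. With either other scaling 19 were called, with the fit to the 6 libraries alone 3, with no filter on low values 8, with at least 5 FPKM in 3 libraries 4 and with a pseudocount of 0.1 22. Ccnb1 lost its call without any 1 24 h library or the third 12 h library (adjusted p = 0.05 to 0.14). Tpx2 did so without any library but the second 12 h one (0.0551 to 0.151). Top2a lost it without any 1 24 h library or the third 12 h library (0.08 to 0.212). Cdk1 did so without the first or the second 24 h library or the third 12 h library (0.0653 to 0.145). Nusap1 lost its call without any 1 24 h library or the third 12 h library (adjusted p = 0.0534 to 0.172). Cenpa did so without any 1 library (0.0625 to 0.222). Cdc25c lost it without any 1 24 h library or the third 12 h library (0.0573 to 0.221). Plk1 did so without any 1 library (0.0545 to 0.232). Cenpe lost its call without any 1 library (adjusted p = 0.0513 to 0.27). Foxm1 did so without the first 24 h library or the third 12 h library (0.121 to 0.132). Bub1 lost it without the first or the second 24 h library or the third 12 h library (0.0735 to 0.171).

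**Figure D2:**
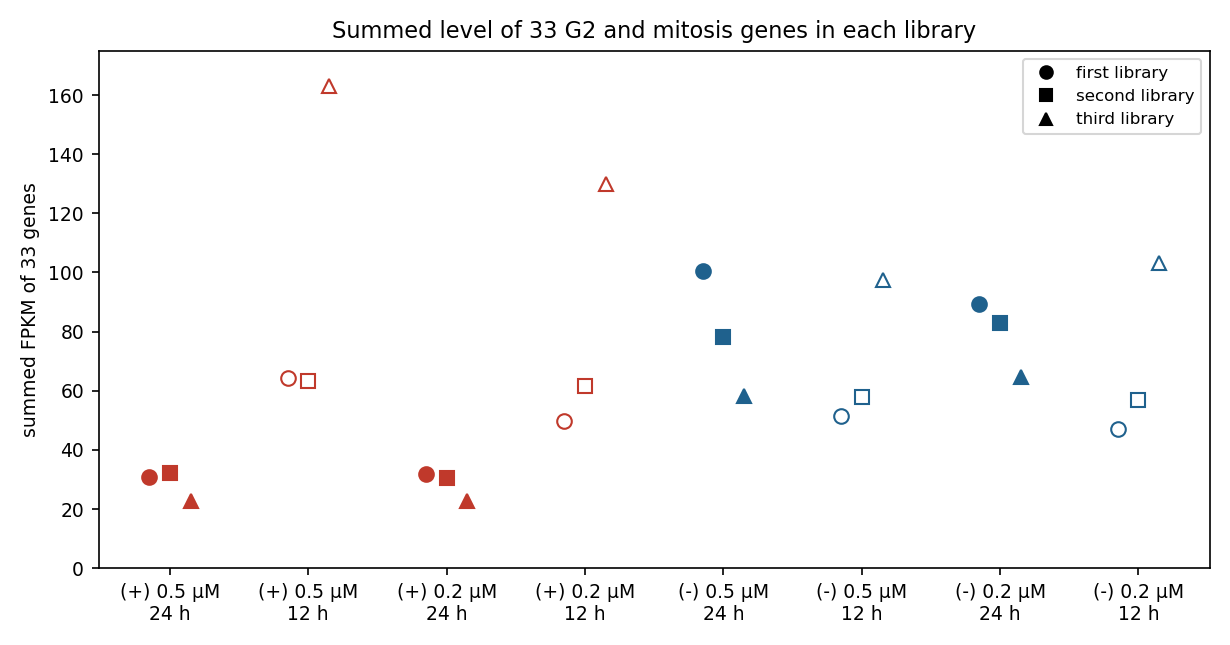
Summed FPKM of the 33 genes of G2 and mitosis in every library of the 8 groups (24 h filled, 12 h open, the marker shape giving the library number). Under 0.5 µM (+)-JQ1 the 24 h sums are 22.7 to 32.2 and the 12 h sums 63.3 to 163, while under 0.5 µM (−)-JQ1 they are 58.4 to 101 at 24 h and 51.4 to 97.4 at 12 h.

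Under (−)-JQ1 at the same dose the summed level of the mitotic genes was 101, 78.0 and 58.4 FPKM at 24 h, against 51.4, 58.0 and 97.4 FPKM at 12 h. There the times overlapped, and the median difference was 0.22. Of the 33 genes 1 fell and 0 rose, against 1.3% and 3.89% of all genes. The difference between the changes, (+) minus (−), was negative for 32 of the 33 genes, with a median of −1.05 beside 0.03 over all genes. It was called for 1 of the 33 genes, Mki67 (−2.01 ± 0.42, adjusted p = 0.0398), against 0.254% of all genes tested that were called lower in that comparison. The Mki67 difference lost its call without any of the 12 libraries but the third 24 h library of (−)-JQ1 and the first and the second 12 h libraries of (+)-JQ1 (adjusted p = 0.057 to 0.135). Under (+)-JQ1 at 0.2 µM the sums were 31.8, 30.4 and 22.6 FPKM at 24 h, against 49.6, 61.7 and 130 FPKM at 12 h, and again did not overlap. At that dose 6 of the 33 fell and 0 rose, against 0.623% and 2.67% of all genes.

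Promoters of mitotic genes are known for a pair of short elements, the CCAAT box bound by NF-Y and the CHR element TTTGAA bound by the DREAM and MuvB complexes. Promoters of 300 bases, 250 before to 50 after the start of the gene, were taken from RefSeq on build GRCm38.p6, which is not the build of the deposited values (mm9). They were found for 27 of the 33 genes. CCAAT, searched on both strands, was present in 23 of the 27 (85.2%), TTTGAA on either strand in 20 (74.1%) and both in 19 (70.4%). Among all 27025 gene symbols of that set 41.1% held the first, 20.2% the second and 7.97% both. A gene with several promoters counted when any of them held the motif, or held both. For the 25 of 31 listed genes of DNA replication and S phase with a promoter there, none of which was called, the shares were 68.0%, 8.0% and 8.0%. Among the genes called lower, 10 of which had a promoter in that set, the first motif was in 90.0% and both were in 60.0%, and Ccnb1 held no TTTGAA. A match is a run of letters and not a site shown to be bound. The promoters of Ube2c (chr2:164769679-164769978, plus strand), Cdk1 (chr10:69352863-69353162, minus strand), Top2a (chr11:99024140-99024439, minus strand) and Mki67 (chr7:135716330-135716629, minus strand) are shown as examples of genes that fell and hold both motifs. Capitals mark the motifs on either strand, and each sequence runs 5′ to 3′ along the gene:
Ube2c: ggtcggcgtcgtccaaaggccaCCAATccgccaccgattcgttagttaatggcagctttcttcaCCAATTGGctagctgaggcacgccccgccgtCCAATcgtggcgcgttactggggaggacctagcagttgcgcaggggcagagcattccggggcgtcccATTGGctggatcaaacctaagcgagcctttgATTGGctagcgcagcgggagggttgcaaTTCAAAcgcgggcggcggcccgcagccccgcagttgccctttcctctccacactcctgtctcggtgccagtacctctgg
Cdk1: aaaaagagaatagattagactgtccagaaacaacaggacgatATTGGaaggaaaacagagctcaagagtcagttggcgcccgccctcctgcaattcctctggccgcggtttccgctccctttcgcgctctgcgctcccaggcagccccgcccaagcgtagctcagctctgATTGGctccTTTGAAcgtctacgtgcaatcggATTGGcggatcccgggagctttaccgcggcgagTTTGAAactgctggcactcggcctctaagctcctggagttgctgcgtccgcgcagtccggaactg
Top2a: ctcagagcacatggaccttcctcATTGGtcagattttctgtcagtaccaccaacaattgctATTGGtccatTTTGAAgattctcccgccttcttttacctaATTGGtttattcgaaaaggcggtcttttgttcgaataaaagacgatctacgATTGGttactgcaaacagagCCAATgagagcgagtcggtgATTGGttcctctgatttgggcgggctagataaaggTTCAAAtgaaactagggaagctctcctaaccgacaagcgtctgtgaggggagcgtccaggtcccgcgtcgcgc
Mki67: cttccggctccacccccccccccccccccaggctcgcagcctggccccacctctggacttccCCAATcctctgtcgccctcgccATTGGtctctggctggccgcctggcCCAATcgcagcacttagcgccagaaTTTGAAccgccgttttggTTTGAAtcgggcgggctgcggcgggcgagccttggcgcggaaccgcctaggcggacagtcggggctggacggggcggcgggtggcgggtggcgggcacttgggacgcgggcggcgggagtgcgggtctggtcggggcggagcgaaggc

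The promoters of Ube2c and Top2a hold 6 matches each to the first motif, and those of Cdk1 and Mki67 hold 3 each. The second motif matches 1 time in Ube2c and 2 times in each of the other three.

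Genes of DNA replication did not pass the test. Of 28 S phase genes tested 0 were called in either direction, against 4.21% of all genes, with a median difference of −0.06. Rrm2, the small subunit of ribonucleotide reductase and a gene named after its values were seen, was at 2.04, 2.03 and 1.69 FPKM at 24 h, against 1.99, 3.17 and 5.67 at 12 h (−0.58 ± 0.25, adjusted p = 0.199). Its times overlapped. Under (−)-JQ1 9 of the 28 genes rose, against 3.89% of all genes, the median was 0.47, and Rrm2 rose (1.26, adjusted p = 0.00426). For Rrm2 the change with time differed between the enantiomers by −1.84 ± 0.35, adjusted p = 0.0205. That call was lost without any of the 12 libraries but the third 24 h and the second 12 h library of (−)-JQ1 and the first and the second 12 h library of (+)-JQ1 (adjusted p = 0.05 to 0.0685).

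Feedback regulators and targets of FGF and ERK signalling included more falls than rises. The pathway runs from FGF receptors through ERK to ETS factors and early genes, and it induces its own inhibitors of the Sprouty and dual-specificity phosphatase families. Of 20 genes tested 6 fell and 1 rose, against 1.44% and 2.77% of all genes, and the median was −0.44. The sum over the list was 259, 253 and 247 FPKM at 24 h, against 324, 296 and 356 FPKM at 12 h, and the times did not overlap. Besides Etv5 the falls were of the early genes Egr1 and Fos, the ERK phosphatase Dusp6, and the pathway inhibitors Spry4 and Il17rd. Egr1 was at 10.7, 12.3 and 11.1 FPKM at 24 h, against 23.7, 33.4 and 37.7 at 12 h (−1.38 ± 0.21, adjusted p = 0.000804). Fos averaged 3.82 ± 0.768 FPKM at 24 h and 10.7 ± 2.37 FPKM at 12 h (−1.27 ± 0.23, adjusted p = 0.00341). The libraries of the 2 times did not overlap in either gene, as in 26.8% of all genes tested. Dusp6 was at 2.45, 2.08 and 1.89 FPKM at 24 h, against 6.69, 4.64 and 10.5 at 12 h (−1.34 ± 0.36, adjusted p = 0.038). Spry4 averaged 0.427 ± 0.0944 FPKM at 24 h and 1.62 ± 0.488 FPKM at 12 h (−0.86 ± 0.21, adjusted p = 0.0212), and Il17rd differed by −0.66 ± 0.15, adjusted p = 0.0161.

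The member of this list that rose was the receptor gene Fgfr2, at 22.5, 24.0 and 23.9 FPKM at 24 h, against 15.1, 20.3 and 12.8 at 12 h (0.54 ± 0.15, adjusted p = 0.0437). The falls numbered 4 without the first 24 h library, 3 without the second and 3 without the first 12 h or the third 12 h library. Dusp6 lost its call without any library but the second 12 h one (adjusted p = 0.067 to 0.19). Spry4 did so without the first or the second 24 h library or the first or the third 12 h library (0.0534 to 0.129). Il17rd lost it without the second 24 h library or the first or the third 12 h library (0.0768 to 0.0938). Fgfr2 did so without any library but the second 12 h one (0.0678 to 0.236). Under (−)-JQ1 5 of the 20 fell and 1 rose, against 1.3% and 3.89% of all genes, with a median of −0.52. The sums there were 250.1, 230.5 and 246 FPKM at 24 h, against 331, 301 and 368 FPKM at 12 h. No member differed between the enantiomers in its change with time at an adjusted p under 0.05.

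Immediate early genes, which respond within minutes to growth factors and calcium, included 5 falls and 0 rises among 20 tested, against 1.44% and 2.77% of all genes, with a median of −0.25. Besides Egr1 and Fos these were Klf10 (−0.88 ± 0.23, adjusted p = 0.0318), Junb (−0.83 ± 0.21, adjusted p = 0.0284) and Nr4a1 (−0.57 ± 0.15, adjusted p = 0.0334). Junb was at 1.89, 1.06 and 2.00 FPKM at 24 h, against 2.41, 3.83 and 5.13 at 12 h, with no overlap. The falls numbered 2 without the first 24 h, the second 24 h or the third 12 h library and 3 without the first 12 h library. Klf10 lost its call without any library but the second 12 h one (adjusted p = 0.0672 to 0.14). Junb did so without the first or the second 24 h library or the second or the third 12 h library (0.0692 to 0.172). Nr4a1 lost it without the first or the second 24 h library or the first or the third 12 h library (0.0765 to 0.172).

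Some genes of young neurons were higher at 24 h. Of 18 genes of the neuronal cytoskeleton and growth cone 4 rose and 1 fell, against 2.77% and 1.44% of all genes tested, and 16 of the 18 differences were positive with a median of 0.35. Besides Dcx the rises were of Gap43, Mapt and the stathmin Stmn3 (0.54 ± 0.15, adjusted p = 0.0417). Gap43, a growth cone protein, was at 6.68, 6.22 and 4.35 FPKM at 24 h, against 2.76, 1.74 and 2.01 at 12 h (1.09 ± 0.21, adjusted p = 0.00552). Mapt, the microtubule protein tau, was at 22.2, 19.4 and 24.2 FPKM at 24 h, against 14.7, 13.1 and 15.2 at 12 h (0.58 ± 0.13, adjusted p = 0.0113). In both genes every 24 h library exceeded every 12 h library, and the times did not overlap in 26.8% of all genes tested. Tubb3, the neuronal tubulin, averaged 188 ± 30.5 FPKM at 24 h and 129 ± 31.8 FPKM at 12 h and did not pass (0.55 ± 0.18, adjusted p = 0.0822). The member that fell was Nefl, the light neurofilament, at 1.33, 1.25 and 0.952 FPKM at 24 h, against 1.91, 2.71 and 3.32 at 12 h (−0.73 ± 0.18, adjusted p = 0.0231). Marker genes of neurons summed to 204 to 270 FPKM at 24 h and 126 to 182 FPKM at 12 h, most of it from Tubb3 (169 to 223 FPKM at 24 h and 109 to 166 FPKM at 12 h). The rises numbered 2 without the first 24 h library and 1 without the third 12 h library of all 4 treatments. Mapt lost its call without the first 24 h library (adjusted p = 0.0583). Stmn3 did so without any library but the second 12 h one (0.051 to 0.233). Nefl lost it without any library but the first 12 h one (0.0554 to 0.142).

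Among 19 genes of the synaptic vesicle and its release 5 rose and 1 fell, against 2.77% and 1.44% of all genes, with a median of 0.22. Snap25, a membrane protein of the fusion complex, was at 5.41, 5.95 and 8.40 FPKM at 24 h, against 2.63, 3.10 and 2.83 at 12 h (0.96 ± 0.15, adjusted p = 0.00101). Syt1, the calcium sensor of release, was at 7.90, 6.80 and 6.27 FPKM at 24 h, against 4.10, 3.49 and 3.6 at 12 h (0.75 ± 0.12, adjusted p = 0.00134). The libraries of the 2 times did not overlap in either gene, as in 26.8% of all genes tested. Rab3c (0.64 ± 0.17, adjusted p = 0.0307), Rab3a (0.56 ± 0.15, adjusted p = 0.0388) and the vesicle protein Syp (0.44 ± 0.10, adjusted p = 0.0191) rose as well. Cplx1, a complexin that clamps fusion, fell and was at 1.17, 1.36 and 1.51 FPKM at 24 h, against 2.79, 2.67 and 2.50 at 12 h (−0.64 ± 0.11, adjusted p = 0.00326). Nsg2, a neuronal protein of endosomes, was at 27.7, 29.3 and 32.7 FPKM at 24 h, against 14.5, 13.8 and 13.6 at 12 h, a narrow spread around a difference of 1.04 ± 0.09, adjusted p = 1.19e-06. The rises numbered 2 without the first 24 h or the third 12 h library and 3 without the second 24 h, the third 24 h or the first 12 h library. Rab3c lost its call without any library but the third 24 h one (adjusted p = 0.0815 to 0.133). Rab3a did so without any 1 library (0.0554 to 0.137). Syp lost it without the first or the third 24 h library or the third 12 h library (0.0501 to 0.124).

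Of 13 proneural and neurogenic factors tested 1 rose and 0 fell, against 2.77% and 1.44% of all genes tested. The member called was Elavl4, at 7.71, 6.34 and 6.92 FPKM at 24 h, against 2.71, 4.18 and 2.56 at 12 h (0.96 ± 0.23, adjusted p = 0.0231). Elavl4 encodes an RNA-binding protein of postmitotic neurons. Of 13 genes of interneurons and the ganglionic eminence 3 rose and 0 fell, against 2.77% and 1.44% of all genes, with a median of 0.52, and all 3 encode transcription factors of the ganglionic eminences. Dlx5 was at 7.22, 7.68 and 7.21 FPKM at 24 h, against 1.94, 4.07 and 1.76 at 12 h (1.28 ± 0.29, adjusted p = 0.0176). Nkx2-1 was at 4.45, 4.44 and 2.71 FPKM at 24 h, against 1.41, 1.73 and 1.73 at 12 h (0.87 ± 0.23, adjusted p = 0.0328). Sp8 was at 11.1, 8.65 and 13 FPKM at 24 h, against 6.35, 8.82 and 5.66 at 12 h (0.59 ± 0.17, adjusted p = 0.0484). The 24 and 12 h libraries overlapped for Sp8 and not for Dlx5 or Nkx2-1. None of the 3 was called without the first 24 h, the first 12 h or the third 12 h library. Elavl4 lost its call without the first or the second 24 h library or the first or the third 12 h library (adjusted p = 0.0561 to 0.123). Dlx5 did so without the first or the second 24 h library or the first or the third 12 h library (0.0678 to 0.108). Nkx2-1 lost it without any library but the third 24 h one (0.0649 to 0.162). Sp8 did so without the first or the third 24 h library or the first or the third 12 h library (0.118 to 0.224).

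Of 24 astrocyte genes tested 4 rose and 0 fell, against 2.77% and 1.44% of all genes, and 18 differences were positive with a median of 0.31. Gfap, the intermediate filament of astrocytes, was at 201, 218 and 242 FPKM at 24 h, against 127, 161 and 115 at 12 h (0.72 ± 0.13, adjusted p = 0.00326). Gja1, the gap junction protein connexin 43, was at 164, 168 and 161 FPKM at 24 h, against 102, 94.1 and 75.3 at 12 h (0.87 ± 0.17, adjusted p = 0.0075). Clu, a secreted chaperone abundant in astrocytes, was at 56.9, 51.0 and 47.6 FPKM at 24 h, against 22.2, 30.9 and 11.5 at 12 h (1.33 ± 0.32, adjusted p = 0.0223). In these genes and in Glul, glutamine synthetase, the lowest 24 h library exceeded the highest 12 h library. The times did not overlap in 26.8% of all genes tested. Glul averaged 398 ± 12.0 FPKM at 24 h and 277 ± 31.1 FPKM at 12 h (0.52 ± 0.13, adjusted p = 0.0223). Astrocyte markers summed to 716 to 816 FPKM at 24 h and 433 to 587 FPKM at 12 h, most of it from Aldoc, Gfap and Gja1. The markers that tended the other way were Aldh1l1 and S100b, with overlap between the times. Aldh1l1 was at 70.9 to 79.9 FPKM at 24 h and 73.4 to 93.9 FPKM at 12 h, and S100b at 1.36 to 2.09 and 1.87 to 2.48 FPKM. The rises numbered 1 without the third 12 h library and 2 without the first 24 h or the second 24 h library. Gja1 lost its call without the third 12 h library (adjusted p = 0.0583). Clu did so without the first or the second 24 h library or the first or the third 12 h library (0.0503 to 0.137). Glul lost it without the first or the second 24 h library or the third 12 h library (0.0783 to 0.142). Under (−)-JQ1 6 of the 24 rose, against 3.89% of all genes, Gfap, Gja1 and Clu among them, by 0.64, 0.82 and 1.41.

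Genes of oligodendrocyte precursors showed no common direction, with a median of −0.02. Of 17 tested 2 rose and 1 fell, against 2.77% and 1.44% of all genes. Cspg5, a neural proteoglycan, rose and was at 49.5, 55.4 and 65.4 FPKM at 24 h, against 37.5, 28.3 and 26.2 at 12 h (0.87 ± 0.14, adjusted p = 0.00159). Gpr17, a receptor of committed precursors, rose and was at 5.75, 7.66 and 10.6 FPKM at 24 h, against 5.52, 3.93 and 2.95 at 12 h (0.81 ± 0.21, adjusted p = 0.0357). Sox8, a factor of the lineage, fell and was at 32.2, 32.6 and 42.0 FPKM at 24 h, against 51.4, 51.8 and 49.2 at 12 h (−0.51 ± 0.12, adjusted p = 0.02). The times did not overlap for any of these 3 called genes, as for 26.8% of all genes tested. Pdgfra, the receptor that marks these precursors, averaged 16 ± 0.369 FPKM at 24 h and 15.5 ± 0.415 FPKM at 12 h (0.04 ± 0.10, adjusted p = 0.882). Olig2, the lineage factor, averaged 169.6 ± 15.9 FPKM at 24 h and 221 ± 11.3 FPKM at 12 h (−0.38 ± 0.11, adjusted p = 0.0541). Olig1, which did not pass either, was at 147 to 249 FPKM at 24 h and 306 to 347 FPKM at 12 h, with no overlap. Of the 17 differences 8 were positive and 9 negative. Gpr17 lost its call without the second or the third 24 h library or the second or the third 12 h library (adjusted p = 0.0856 to 0.194). Sox8 did so without any library but the third 24 h one (0.059 to 0.124).

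Of 18 genes of premyelinating oligodendrocytes and myelin 3 rose and 0 fell, against 2.77% and 1.44% of all genes, with 16 positive differences and a median of 0.35. Ugt8a, which makes galactocerebroside, was at 16.4, 19.7 and 17.5 FPKM at 24 h, against 12.4, 11.3 and 11.8 at 12 h (0.55 ± 0.10, adjusted p = 0.00355). Cldn11, the tight junction protein of myelin, was at 5.77, 8.09 and 2.83 FPKM at 24 h, against 1.69, 1.35 and 2.00 at 12 h (1.21 ± 0.27, adjusted p = 0.0148). In both genes the times did not overlap, as in 26.8% of all genes tested. Cldn11 lost its call without the first or the second 24 h library or the second 12 h library (adjusted p = 0.0545 to 0.0933). Under (−)-JQ1 10 of the 18 rose, against 3.89% of all genes, and the median was 0.78. Mbp, myelin basic protein and a gene named after its values were seen, averaged 22.6 ± 9.19 FPKM at 24 h and 14.7 ± 2.50 FPKM at 12 h under (+)-JQ1 (0.52 ± 0.30, adjusted p = 0.352). Under (−)-JQ1 Mbp averaged 222 ± 47.1 FPKM at 24 h and 75.7 ± 3.88 FPKM at 12 h (1.52, adjusted p = 0.00427), and the difference between its changes did not pass (−1.0 ± 0.42, adjusted p = 0.608).

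**Figure D3:**
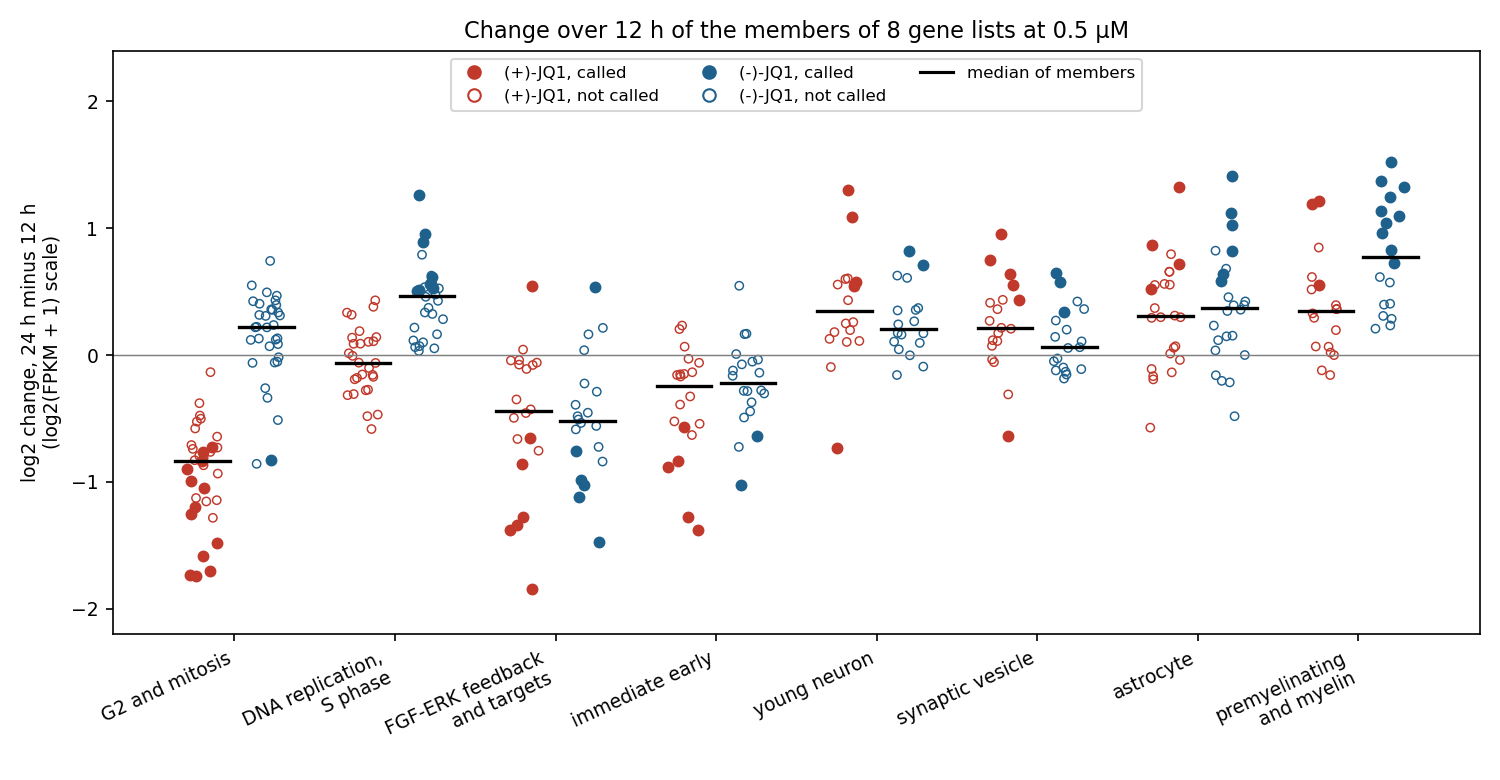
Log2 differences between 24 and 12 h of the tested members of 8 gene lists, under 0.5 µM (+)-JQ1 (red, left in each pair) and 0.5 µM (−)-JQ1 (blue, right), with filled points for called genes and a bar at the list's median. The genes of G2 and mitosis lie below 0 under (+)-JQ1 with a median of −0.84, beside 0.22 under (−)-JQ1, and the myelin genes have medians of 0.35 and 0.78.

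Of 23 genes of neural stem cells and radial glia 3 rose and 1 fell, against 2.77% and 1.44% of all genes, with a median of 0.08. Sox1, Sox2 and Pax6 encode transcription factors of the neuroepithelium. Sox1 was at 49.6, 42.4 and 52.3 FPKM at 24 h, against 28, 33.5 and 24.0 at 12 h (0.74 ± 0.14, adjusted p = 0.00418). Sox2 was at 368, 369 and 277 FPKM at 24 h, against 229.6, 233 and 218 at 12 h (0.56 ± 0.14, adjusted p = 0.0234). Pax6 was at 33.6, 35.1 and 33.6 FPKM at 24 h, against 22.4, 28.7 and 19 at 12 h (0.54 ± 0.15, adjusted p = 0.0484). All 3 were higher in every 24 h library than in any 12 h library, and the times did not overlap in 26.8% of all genes tested. Egfr, the EGF receptor of later progenitors, fell and was at 32.2, 27 and 30.9 FPKM at 24 h, against 51.3, 37.1 and 53.6 at 12 h (−0.63 ± 0.17, adjusted p = 0.0369). The filament protein Nes averaged 112 ± 14 FPKM at 24 h and 122 ± 23.5 FPKM at 12 h (−0.12 ± 0.17, adjusted p = 0.745). The call of Sox1 held without any 1 library. Sox2 lost its call without any library but the third 24 h one (adjusted p = 0.051 to 0.135). Pax6 did so without any library but the second 12 h one (0.0628 to 0.243). Egfr lost it without the first or the second 24 h library or the first or the third 12 h library (0.0882 to 0.177).

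In the Notch pathway ligands of the Delta and Jagged families signal to neighbouring cells, and here the ligands moved in both directions. Of 19 genes tested 3 fell and 1 rose, against 1.44% and 2.77% of all genes, and 14 differences were negative with a median of −0.15. Dll1 was at 54.3, 58.6 and 55.9 FPKM at 24 h, against 79.1, 113 and 99.0 at 12 h (−0.76 ± 0.18, adjusted p = 0.0193). Dll3, a ligand that acts within the cell, was at 12.8, 12.5 and 18.1 FPKM at 24 h, against 34.3, 40.3 and 28.3 at 12 h (−1.19 ± 0.21, adjusted p = 0.00262). Dtx4, a ubiquitin ligase of the pathway, averaged 43.5 ± 1.89 FPKM at 24 h and 58.5 ± 2.46 FPKM at 12 h (−0.42 ± 0.09, adjusted p = 0.0127). The ligand Jag1 rose. The times did not overlap in any of the 4 called genes, as in 26.8% of all genes tested. Jag1 was at 17.6, 18.3 and 16.8 FPKM at 24 h, against 10.4, 13.3 and 8.70 at 12 h (0.67 ± 0.13, adjusted p = 0.0058). The effector Hes5 averaged 118 ± 20.3 FPKM at 24 h and 157 ± 14.6 FPKM at 12 h (−0.43 ± 0.27, adjusted p = 0.394). Dll1 lost its call without the first or the second 24 h library or the second or the third 12 h library (adjusted p = 0.0553 to 0.0857). Dtx4 did so without the first 24 h library or the first 12 h library (0.0553 to 0.0781). Jag1 lost it without the third 12 h library (0.0501). Under (−)-JQ1 Jag1 was at 1.34, 1.20 and 1.48 FPKM at 24 h, against 1.63, 2.22 and 1.92 at 12 h (−0.32, adjusted p = 0.178). Its change with time differed between the enantiomers by 0.99 ± 0.18, adjusted p = 0.0164, a call lost without the second 24 h or the third 12 h library of (+)-JQ1 or the second 12 h or the third 12 h library of (−)-JQ1 (adjusted p = 0.0503 to 0.0573).

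Of 17 genes of BMP signalling 2 rose, Nog and Bmper, against 2.77% of all genes. Both encode secreted proteins that bind BMPs. Bmper was at 7.37, 6.67 and 6.06 FPKM at 24 h, against 4.03, 4.68 and 2.91 at 12 h (0.67 ± 0.14, adjusted p = 0.0102). Its times did not overlap. Bmper fell under (−)-JQ1 (−0.78, adjusted p = 0.00231), so that its changes differed by 1.45 ± 0.20, adjusted p = 0.000837, while Nog rose there as well (1.72, adjusted p = 0.00197). Of 16 genes of gliogenic cytokine signalling and JAK-STAT the transcription factor Stat3 fell, against 1.44% of all genes, and no other was called. Stat3 was at 45.5, 38.7 and 48.4 FPKM at 24 h, against 66.2, 65.6 and 68.2 at 12 h (−0.59 ± 0.09, adjusted p = 0.00101), and this call held without any 1 library. Bmper lost its call without the first 24 h library or the third 12 h library (adjusted p = 0.069 to 0.0866). Nog did so without the first 24 h library or the third 12 h library (0.0596 to 0.0616).

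BET proteins, P-TEFb and the Myc network gave 1 call between them, while 4.21% of all genes tested were called. Of 15 genes of BET proteins and P-TEFb 0 were called, with a median of 0.01. Myc, a gene known to depend on BET proteins in many cells, averaged 7.24 ± 0.248 FPKM at 24 h and 9.88 ± 1.99 FPKM at 12 h (−0.39 ± 0.14, adjusted p = 0.116). Of 19 genes of the Myc network and polyamine synthesis Sms, spermine synthase, rose (0.51 ± 0.14, adjusted p = 0.0454). Sms lost its call without any library but the third 24 h one (adjusted p = 0.0916 to 0.237). None of 26 genes of ribosome biogenesis was called, with a median of 0.16. Among 17 G1 cyclins and CDK inhibitors the 2 that fell were Cdkn1c and Cdkn1a, against 1.44% of all genes. The cyclin Ccnd1 averaged 2.75 ± 0.423 FPKM at 24 h and 2.65 ± 0.499 FPKM at 12 h (0.04 ± 0.21, adjusted p = 0.938). Over all genes 2716 had an unadjusted limma p under 0.05.

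Of 24 genes of the p53 response 3 fell, against 1.44% of all genes, and 19 of the 24 differences were negative. Besides Cdkn1a these were Trp53inp1, at 44.8, 39.7 and 43.9 FPKM at 24 h, against 61.2, 56.5 and 78.3 at 12 h (−0.59 ± 0.13, adjusted p = 0.0121), and Trp53 itself (−0.55 ± 0.15, adjusted p = 0.047). Trp53inp1 lost its call without the second 24 h library or the third 12 h library (adjusted p = 0.0682 to 0.103). Trp53 did so without any library but the third 24 h one (0.0547 to 0.205). Of 31 clustered histone genes 3 fell, against 1.44% of all genes, and 29 differences were negative with a median of −0.29. Hist1h2bg was at 9.19, 10.6 and 9.93 FPKM at 24 h, against 22.4, 18 and 25.7 at 12 h (−1.06 ± 0.29, adjusted p = 0.0386). Hist2h3b (−0.83 ± 0.23, adjusted p = 0.0434) and Hist2h2aa1 (−0.61 ± 0.12, adjusted p = 0.00734) fell too. Copies of these genes are nearly identical and most of their RNA lacks poly(A), so the assignment of reads to a copy is uncertain. Hist1h2bg lost its call without any library but the second 12 h one (adjusted p = 0.0573 to 0.164). Hist2h3b did so without any library but the third 24 h one (0.0757 to 0.153). Hist2h2aa1 lost it without the first 24 h library (0.0596).

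Metabolic lists held few calls, and over all genes tested 2.77% rose and 1.44% fell. In cholesterol synthesis and uptake Nsdhl, a sterol dehydrogenase, fell (−0.81 ± 0.19, adjusted p = 0.0192), and 23 of 26 differences were negative with a median of −0.28, beside 0.22 under (−)-JQ1. The sterol reductase gene Tm7sf2, which fell further (−1.56, adjusted p = 0.00134), was not on this list. Of 22 genes of glycolysis and the hypoxia response the glycolytic enzymes Tpi1 (−0.71 ± 0.15, adjusted p = 0.0087) and Aldoa (−0.60 ± 0.13, adjusted p = 0.014) fell. Bnip3, a mitophagy receptor of that list, rose (0.49 ± 0.14, adjusted p = 0.0499). The mitochondrial serine enzyme Shmt2 fell (−0.71 ± 0.17, adjusted p = 0.0193) as the one call of 23 genes of the stress responses. Nsdhl lost its call without the second 24 h library or the first or the third 12 h library (adjusted p = 0.0768 to 0.105). Tpi1 did so without the first 24 h library or the third 12 h library (0.0545 to 0.071). Aldoa lost it without the first or the second 24 h library or the third 12 h library (0.055 to 0.1). Bnip3 did so without any library but the third 24 h one (0.0618 to 0.253). Shmt2 lost it without the first or the second 24 h library or the first or the third 12 h library (0.0547 to 0.14). None of 24 respiratory chain genes, 16 genes of thioredoxin and NRF2, 15 interferon genes and 8 hedgehog genes was called.

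Of 30 axon guidance genes 5 rose and 2 fell, against 2.77% and 1.44% of all genes. The receptor Robo2 was at 13.8, 12.7 and 10.6 FPKM at 24 h, against 8.0, 7.16 and 5.87 at 12 h (0.74 ± 0.18, adjusted p = 0.0258). Epha3 (0.80 ± 0.19, adjusted p = 0.0192), Plxna2 (0.50), Nrp1 (0.49) and Efnb2 (0.44) rose as well. The netrin receptor Unc5b fell and was at 3.35, 3.67 and 3.74 FPKM at 24 h, against 6.61, 5.96 and 7.71 at 12 h (−0.75 ± 0.18, adjusted p = 0.018). The plexin Plxnd1 fell too (−0.72 ± 0.15, adjusted p = 0.0108). The rises numbered 0 without the first 24 h or the third 12 h library, 1 without the second 24 h or the second 12 h library and 2 without the first 12 h library. Robo2 lost its call without the first or the second 24 h library or the second or the third 12 h library (adjusted p = 0.0553 to 0.141). Epha3 did so without the first or the second 24 h library or the third 12 h library (0.0512 to 0.145). Unc5b lost it without the first or the second 24 h library or the first or the third 12 h library (0.0508 to 0.108). Plxnd1 did so without the first 24 h library or the third 12 h library (0.051 to 0.0762). Plxna2 lost its call without any library but the second 24 h one (adjusted p = 0.0616 to 0.155). Nrp1 did so without any library but the third 24 h one (0.0832 to 0.211). Efnb2 lost it without any library but the third 24 h one (0.056 to 0.136). Of 18 Wnt genes the secreted antagonist Sfrp1 rose and was at 55.8, 52.6 and 58.0 FPKM at 24 h, against 29.1, 39.7 and 21.9 at 12 h (0.89 ± 0.21, adjusted p = 0.0192). Its relative Sfrp2 (−0.67 ± 0.17, adjusted p = 0.0307) and the feedback inhibitor Nkd1 (−0.60 ± 0.13, adjusted p = 0.0127) fell. Sfrp1 lost its call without the first or the second 24 h library or the first or the third 12 h library (adjusted p = 0.0548 to 0.135). Sfrp2 did so without the first 24 h library or any 1 12 h library (0.0675 to 0.215). Nkd1 lost it without the first 24 h library or the second or the third 12 h library (0.0501 to 0.069).

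Among 20 voltage-gated channel genes the calcium channel subunits Cacna2d1 (0.64 ± 0.14, adjusted p = 0.0115) and Cacng4 (0.61 ± 0.16, adjusted p = 0.0306) rose, and among 18 neurotransmitter receptors the AMPA receptor subunit Gria2 (0.52 ± 0.13, adjusted p = 0.0223). Over all genes tested 2.77% rose and 1.44% fell. In the matrix list of 21 genes Nid1, a basement membrane protein, rose (0.51 ± 0.12, adjusted p = 0.0188) and Hspg2, perlecan, fell (−0.71 ± 0.15, adjusted p = 0.00963). Cacna2d1 lost its call without the first 24 h library or the first or the third 12 h library (adjusted p = 0.0603 to 0.069). Cacng4 did so without any library but the second 24 h one (0.066 to 0.109). Gria2 lost it without the first or the second 24 h library or the first or the second 12 h library (0.0786 to 0.125). Nid1 did so without the first or the second 24 h library or the third 12 h library (0.064 to 0.0926). Hspg2 lost it without the third 12 h library (0.0616). Acta2, smooth muscle actin and a marker of pericytes, fell and was at 26.2, 21.4 and 21.4 FPKM at 24 h, against 37.9, 38.2 and 36.0 at 12 h (−0.68 ± 0.15, adjusted p = 0.0127). Acta2 lost its call without the second 24 h library (adjusted p = 0.066). Of the 8 pericyte markers 2 reached 1 FPKM in any of the 6 libraries, and the list summed to 24.1 to 29.5 FPKM at 24 h and 40.3 to 40.9 FPKM at 12 h.

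The same hours under 0.5 µM (−)-JQ1 gave 716 called genes (5.19%), 537 higher at 24 h (3.89%) and 179 lower (1.3%). Of the 382 genes that rose under (+)-JQ1, 136 rose under (−)-JQ1 too, which is 35.6% of the first list and 25.3% of the second. Of the 199 that fell, 41 fell under (−)-JQ1, 20.6% and 22.9% of the lists. Read under (−)-JQ1, the 382 genes had a median difference of 0.41 and the 199 genes one of −0.26. Under (−)-JQ1 Tceal3 differed by 1.47, Dlx6as1 by 1.69, Mt3 by 1.06, Clu by 1.41 and Nog by 1.72, and all 5 passed.

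The change with time differed between the enantiomers for 45 genes (0.326%), more positive under (+)-JQ1 for 10 (0.0725%) and more negative for 35 (0.254%). With the library number as a block within each time, chosen after seeing the data, the counts were 47 and 168. The largest of the positive ones was that of Pcp4, which averaged 21.4 ± 5.30 FPKM at 24 h and 13.3 ± 1.68 FPKM at 12 h under (−)-JQ1 (0.62, adjusted p = 0.12), so that its changes differed by 2.41 ± 0.32, adjusted p = 0.000541. Nsg2 averaged 55.2 ± 4.28 FPKM at 24 h and 55.1 ± 4.48 FPKM at 12 h under (−)-JQ1 (0.00, adjusted p = 0.988), and its changes differed by 1.03 ± 0.13, adjusted p = 0.000325. Rap1gap, which switches off the GTPase Rap1, rose under (+)-JQ1 at 5.19, 5.45 and 6.26 FPKM at 24 h, against 3.31, 3.62 and 2.90 at 12 h (0.63 ± 0.11, adjusted p = 0.00355). Under (−)-JQ1 it differed by −0.33, adjusted p = 0.106, and the changes differed by 0.96 ± 0.16, adjusted p = 0.00631.

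Several genes that rose with time under (−)-JQ1 were at far lower levels under (+)-JQ1. Enpp6, a choline phosphodiesterase of newly formed oligodendrocytes, was at 0.120, 0.304 and 0.210 FPKM at 24 h, against 0.337, 0.196 and 0.419 at 12 h under (+)-JQ1. Under (−)-JQ1 Enpp6 was at 43.3, 41.7 and 57.0 FPKM at 24 h, against 18.9, 17.6 and 16.2 at 12 h (1.37, adjusted p = 4.08e-06). The unnamed gene 9630013A20Rik was listed at 0 in all 3 libraries at 24 h under (+)-JQ1, with 0.130, 0.0433 and 0.231 FPKM at 12 h. Under (−)-JQ1 it was at 13.8, 18.4 and 16.9 FPKM at 24 h, against 8.44, 5.97 and 7.94 at 12 h (1.04, adjusted p = 0.000129). Both genes entered the test through groups other than 0.5 µM (+)-JQ1. At levels under 1 FPKM the log2(FPKM + 1) scale leaves little room for a change, so the difference between the enantiomers is not read for them. Scrg1, a gene of glial cells, fell under (+)-JQ1, at 4.16, 4.91 and 3.81 FPKM at 24 h, against 8.90, 7.12 and 6.55 at 12 h (−0.68 ± 0.19, adjusted p = 0.0482). Under (−)-JQ1 Scrg1 was at 127, 122 and 103 FPKM at 24 h, against 70.6, 60.8 and 50.3 at 12 h, and its changes differed by −1.63 ± 0.27, adjusted p = 0.00606. For its change with time under (+)-JQ1, Scrg1 lost its call without any 1 library (adjusted p = 0.0815 to 0.183).

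Cryab, a small heat shock protein of oligodendrocytes, averaged 0.820 ± 0.279 FPKM at 24 h and 1.39 ± 0.0867 FPKM at 12 h under (+)-JQ1. Under (−)-JQ1 Cryab averaged 19.6 ± 1.48 FPKM at 24 h and 10.9 ± 0.887 FPKM at 12 h, a difference between the changes of −1.19 ± 0.18, adjusted p = 0.00159. Acta2 rose under (−)-JQ1, where it averaged 117 ± 19.1 FPKM at 24 h and 62.4 ± 6.48 FPKM at 12 h, and its changes differed by −1.57 ± 0.21, adjusted p = 0.000736. The changes of Unc5b differed by −1.16 ± 0.25, adjusted p = 0.0416, a call lost without any of the 12 libraries but the first 24 h library of (−)-JQ1 (adjusted p = 0.0575 to 0.146). Ell2, an elongation factor that works with P-TEFb, was called too (−0.76 ± 0.15, adjusted p = 0.0264), but not without any 1 of the 12 libraries (0.0515 to 0.0887). The calls of Pcp4, Nsg2, Rap1gap, Scrg1, Cryab, Acta2 and Bmper in the difference between the enantiomers held without each 1 of the 12 libraries.

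**Figure D4:**
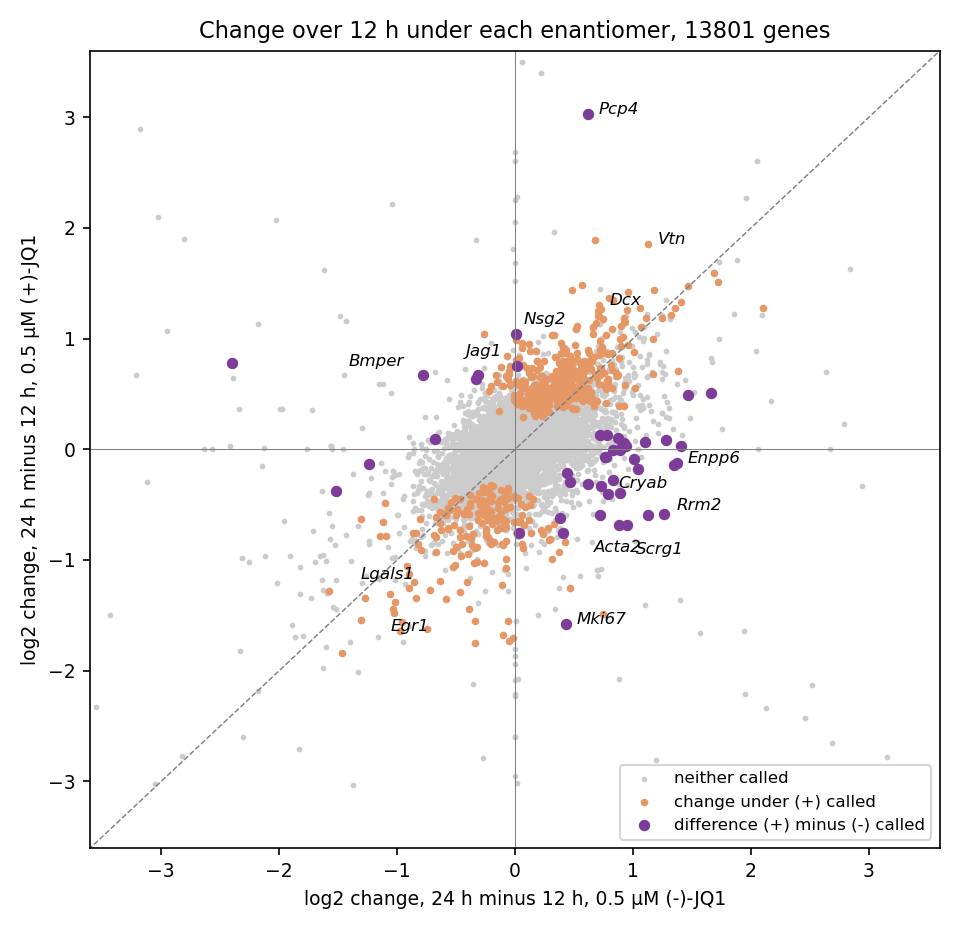
Log2 difference between 24 and 12 h of the 13801 genes tested, under 0.5 µM (+)-JQ1 (y axis) and 0.5 µM (−)-JQ1 (x axis), both of log2(FPKM + 1), with 38 genes beyond the axes at 3.6. Pcp4 lies at 3.03 under (+)-JQ1 and 0.62 under (−)-JQ1, and Bmper at 0.67 under (+)-JQ1 and −0.78 under (−)-JQ1.

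At 0.2 µM (+)-JQ1 455 genes were called between 24 and 12 h (3.3%), 369 higher (2.67%) and 86 lower (0.623%). Of the 382 genes that rose at 0.5 µM, 179 rose at 0.2 µM, which is 46.9% of the first list and 48.5% of the second. Of the 199 that fell at 0.5 µM, 60 fell at 0.2 µM, 30.2% and 69.8% of the lists. The change with time differed between the doses for 0 genes (0.0%) by limma, with 341 genes at an unadjusted p under 0.05, and for 0 genes in every other fit run. Pcp4 differed between the doses by 0.54 ± 0.32, adjusted p = 0.965, and Vtn by −0.17 ± 0.30, adjusted p = 0.965. Egr1 differed by 0.07 ± 0.29, adjusted p = 0.987, and Acta2 by −0.87 ± 0.21, adjusted p = 0.965.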

How the data were processed

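Values were FPKM per gene symbol, deposited by the authors for 24 libraries. Per the labels' protocols, poly(A) RNA was primed with random hexamers and sequenced as 50-base single reads. Per the submitters' processing notes TopHat2, FastQC and build mm9 were used. The program and annotation that gave the FPKM, and all versions, are not given in the sources used here. Of 26694 entries 58 with repeated symbols were left out, and 13801 genes that reached 1 FPKM in 3 or more libraries entered the test. Differences of log2(FPKM + 1), which understate the change of low genes, were tested with limma 3.58.1 (R 4.3.3). The fit had 8 group means, a mean-variance trend, robust moderation and 16 residual degrees of freedom. P-values were two-sided and Benjamini-Hochberg adjusted over all genes tested. The first 24 h library of 0.2 µM (−)-JQ1 and the second of 0.2 µM (+)-JQ1 had 42.7% and 46.9% of their FPKM in Mir5105, and entered only the spread and, in 1 case, the comparison at 0.2 µM. On simulated data the procedure called 52.2% of genes changed 1.5-fold and 92.5% of those changed 2-fold, with 8 unchanged genes called. The changed genes were drawn from those at a mean of at least 5 FPKM over the 6 libraries. Their change was added on the log2(FPKM + 1) scale, so recovery of changes in lower genes was not tested. Its noise was independent between genes and libraries, so a shift shared by many genes of 1 library was not part of that test. Members, gene lists and tests were chosen with earlier results of these data known. Genes were named by size of change (12 higher, 12 lower, and 6 each way for the difference between enantiomers) and as up to 4 called members of each list, with a set of fixed genes. Some of these genes are not reported here. Where a gene was singled out otherwise, the text says so. Further such genes are Bub1, Cenpe, Efnb2, Ell2, Cacng5, Emx1, Fgfr2, Il17rd, Nr4a1, Nrp1, Plxna2, Rab3a, Stmn3 and Syp. Alternatives were other scalings, filters, pseudocounts and weights, a block for the library number, a fit to the compared libraries alone, and leaving out each library.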

Additional observations from a re-analysis of the deposited data

Results flagged for a closer look

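Each gene here was picked out because its change between 24 and 12 h differed between 0.5 µM (+)-JQ1 and 0.5 µM (−)-JQ1 by limma's test of the difference itself, adjusted over all genes tested. The difference of the log2 changes, (+) minus (−), was positive for Pcp4 (2.41), Bmper (1.45), Cacng5 (1.14), Nsg2 (1.03), Jag1 (0.99), Rap1gap (0.96) and Pipox (0.78). It was negative for Mki67 (−2.01), Rrm2 (−1.84), Scrg1 (−1.63), Acta2 (−1.57), Enpp6 (−1.49), 9630013A20Rik (−1.22), Cryab (−1.19), Unc5b (−1.16), Man1c1 (−1.11) and Ell2 (−0.76). Enpp6, 9630013A20Rik and the channel subunit Cacng5 were under 1 FPKM in every library of 0.5 µM (+)-JQ1, where log2(FPKM + 1) leaves little room for a change. Their differences therefore restate mostly the change under (−)-JQ1 and are given as values only. Pipox, an enzyme of pipecolate breakdown, averaged 5.02 ± 0.701 FPKM at 24 h and 4.65 ± 0.675 FPKM at 12 h under (+)-JQ1 and 10.2 ± 0.310 FPKM at 24 h and 17 ± 1.28 FPKM at 12 h under (−)-JQ1 (adjusted p of the difference = 0.0376). That call held without the third 24 h library of (+)-JQ1 and was lost without any other of the 12 libraries (adjusted p = 0.0517 to 0.138). Man1c1, a mannosidase of the Golgi, averaged 11.6 ± 0.170 FPKM at 24 h and 14.4 ± 1.88 FPKM at 12 h under (+)-JQ1 and 17 ± 2.08 FPKM at 24 h and 9.16 ± 1.41 FPKM at 12 h under (−)-JQ1 (adjusted p of the difference = 0.0109), a call lost without the third 12 h library of (−)-JQ1 (adjusted p = 0.0503).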

How the results depend on the processing

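Depth is known only as a ratio, and changes of genes under 1 FPKM are compressed on the log2(FPKM + 1) scale. Under 0.5 µM (+)-JQ1 the counts of genes higher and lower at 24 h were 231 and 130 in a fit to the 6 libraries alone, 1555 and 794 with library weights, and 660 and 362 without the libraries rich in Mir5105. Leaving out single libraries gave 110 to 638 higher and 60 to 261 lower. Chosen after seeing the data, scaling to one sum gave 210 and 304, and leaving out the third 12 h library of all 4 treatments 84 and 60. Median-of-ratios scaling gave 321 lower. Under 0.5 µM (−)-JQ1 they were 310 higher with at least 5 FPKM, 2020 and 1234 with weights, 415 lower without the Mir5105 libraries, 230 and 59 without the third 12 h libraries, and 282 to 867 and 82 to 322 without single libraries. At 0.2 µM (+)-JQ1 they were 110 and 17 with those libraries alone, 738 and 206 with weights, 119 and 33 without the third 12 h libraries, and 141 to 323 and 28 to 69 without single libraries. For the difference (+) minus (−) they were 49 and 123 with weights, 17 higher without the Mir5105 libraries, 21 lower with at least 5 FPKM, 4 and 10 without the third 12 h libraries, and 5 to 9 and 16 to 31 without single libraries. The cause was not tested.

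Whether library numbers pair the samples was checked by correlating, across genes, deviations from the group means of same-numbered libraries at 24 and 12 h. The 3 values were −0.14, −0.05 and −0.10 under 0.5 µM (+)-JQ1. Between 0.5 µM (+)-JQ1 and 0.5 µM (−)-JQ1 within a time they were 0.0458, 0.166 and 0.292 at 24 h, against −0.0227, 0.358 and 0.179 at 12 h. Since not every pair exceeded 0.1 in either check, the numbers were not taken to pair the samples. Within a time, however, the second and the third pairs did exceed it. All statements above on the difference between enantiomers, also of genes that did not pass, come from the fit without a block. With the number as a block in the fit to all libraries, 506 genes were higher and 282 lower under 0.5 µM (+)-JQ1, and 133 lower at 0.2 µM. With the block in fits to the compared libraries alone the counts were 93 and 56 under 0.5 µM (+)-JQ1, 197 and 101 under 0.5 µM (−)-JQ1, 88 and 25 at 0.2 µM (+)-JQ1 and 8 lower for the difference between enantiomers. With a block within each time, chosen after seeing the data, that difference gave 47 and 168, against 10 and 35 without a block.

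Of 112 named calls 19 held in each alternative run. Leaving out the third 12 h or the first 24 h library ended 72 and 71 of them, and the third 24 h library 24. Genes that were not called and changed sign were Pipox (−0.0106 to 0.193 without single libraries, −0.0106 without the third 12 h library of all treatments), Nes (−0.204 to 0.0331, and 0.0331), Ccnd1 (−0.0589 to 0.14, and −0.0144 with one-sum scaling), Bhlhe40 (−0.139 to 0.245) and Pdgfra (−0.00293 with median-of-ratios and −0.0363 with one-sum scaling).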

Other observations

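Genes of the circadian clock, chosen after their values were seen, were among those higher at 24 h under 0.5 µM (+)-JQ1. The clock rests on a loop in which the activators CLOCK and BMAL1 (encoded by Arntl) drive Per, Cry, Nr1d1 and Nr1d2, together with the output factors Dbp, Tef and Hlf. Dbp was at 5.25, 5.2 and 4.84 FPKM at 24 h, against 1.20, 1.47 and 1.10 at 12 h (1.44 ± 0.15, adjusted p = 1.61e-05). Every 24 h library was far above every 12 h library. Besides Nr1d2 (1.25), Per3 (1.11 ± 0.15, adjusted p = 0.000214), Hlf (1.10 ± 0.17, adjusted p = 0.00105), Tef (0.74 ± 0.13, adjusted p = 0.00225) and Nr1d1 (0.79 ± 0.20, adjusted p = 0.0241) rose. Nr1d1 lost its call without the first or the second 24 h library or the first or the third 12 h library (adjusted p = 0.0621 to 0.124). Arntl fell and was at 28.4, 29.4 and 28.6 FPKM at 24 h, against 42.5, 41.5 and 47.1 at 12 h, with no overlap (−0.58 ± 0.11, adjusted p = 0.00421). Per1, Per2, Cry1, Cry2, Clock, Rora, Bhlhe40, Bhlhe41 and Nfil3 did not pass.

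Under 0.5 µM (−)-JQ1 the changes with time were 0.49, adjusted p = 0.0655 for Dbp, 0.70, adjusted p = 0.00427 for Nr1d2, 0.52, adjusted p = 0.0393 for Per3, 0.66, adjusted p = 0.027 for Hlf, 0.10, adjusted p = 0.7 for Tef and −0.61, adjusted p = 0.00184 for Arntl. Under 0.2 µM (+)-JQ1 Arntl differed by −0.68, adjusted p = 0.00125 and Dbp by 1.20, adjusted p = 0.000102. The difference between the enantiomers did not pass for any gene of this group, and that of Dbp was 0.95 ± 0.21, adjusted p = 0.0601.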
